A study of Mus musculus with 32 samples.

Results

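The erythroid and megakaryocyte genes described here are 9 named genes out of 56246 gene rows of a mouse RNA-seq count table. They were taken by symbol, 6 from the erythroid branch (Gata1, Klf1, Gfi1b, Epor, Tfrc and Car1) and 3 from the megakaryocyte branch (Itga2b, Pf4 and Vwf). All 9 symbols matched 1 gene each (coordinates of genes are on GRCm38), and all 9 passed the filter on low counts in each fit. The RNA came from bone marrow of transgenic FLT3-ITD mice on a C57BL/6 background, sorted by flow cytometry into LSK cells or GMP. FLT3-ITD is a form of the receptor FLT3 in which a repeated stretch keeps the kinase switched on, and every group carried it, vehicle included, so no group shows marrow without the transgene. Each cell type was taken from mice given the combination of Lys05 and AC220, AC220 alone, Lys05 alone or vehicle. This gave 8 groups of 4 biological replicate libraries, 32 in all. AC220 (quizartinib) inhibits the FLT3 kinase, and Lys05 is a lysosomal inhibitor that blocks autophagy. The comparisons ask how each drug alone, and the 2 together, altered RNA levels within each sorted population. The promoter of the transgene, and the doses, times and ages, are not given in the sources used here, and neither is whether cells of several mice were pooled.

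LSK cells, sorted as lineage-negative, Sca-1-positive and Kit-positive, hold haematopoietic stem cells and multipotent progenitors. GMP, the granulocyte-macrophage progenitors, lie on the myeloid side and normally yield granulocytes and monocytes. Red cells and platelets arise from a shared progenitor in which GATA1 is the leading transcription factor. KLF1 then drives erythroid genes such as the globins, while the repressor GFI1B is needed in both branches. Erythropoietin acts through its receptor EPOR to keep erythroid progenitors alive, the transferrin receptor TFRC brings in iron for haem, and carbonic anhydrase 1 (Car1) appears early on the erythroid path. Itga2b encodes CD41, the alpha chain of the fibrinogen receptor of platelets. Pf4 encodes a chemokine of platelet granules, and Vwf the adhesion protein von Willebrand factor, which is also found in a subset of stem cells. Tfrc is made by dividing cells of many kinds, so it does not mark the erythroid branch alone.

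The promoters of Klf1, Gfi1b and Itga2b are shown because Klf1 and Gfi1b were lowest in the same library of every LSK group, whereas Itga2b was highest in the library that was lowest for both in 3 of the 4 groups. Each runs 5′ to 3′ on the gene's own strand from 250 bases before to 50 bases after the start of the gene, as given by RefSeq on GRCm38.p6. They lie at chr8:84901732-84902031 (plus strand), chr2:28621933-28622232 (minus strand) and chr11:102469834-102470133 (minus strand). Capitals mark GATAA, or TTATC where the match is on the other strand, which is the core recognised by GATA factors. They also mark CACCC, or GGGTG where the match is on the other strand, which is the core recognised by KLF factors.
Klf1: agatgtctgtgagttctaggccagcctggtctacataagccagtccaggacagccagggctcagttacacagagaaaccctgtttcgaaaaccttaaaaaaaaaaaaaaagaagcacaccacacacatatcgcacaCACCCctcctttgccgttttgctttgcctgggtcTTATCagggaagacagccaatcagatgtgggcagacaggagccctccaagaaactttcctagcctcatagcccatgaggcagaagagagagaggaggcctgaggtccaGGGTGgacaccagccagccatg
Gfi1b: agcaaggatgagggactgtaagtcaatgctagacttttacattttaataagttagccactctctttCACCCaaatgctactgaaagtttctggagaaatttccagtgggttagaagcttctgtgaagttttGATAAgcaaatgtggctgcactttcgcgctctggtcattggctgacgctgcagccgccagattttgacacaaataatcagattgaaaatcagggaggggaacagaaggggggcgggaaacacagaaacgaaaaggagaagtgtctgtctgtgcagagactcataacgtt
Itga2b: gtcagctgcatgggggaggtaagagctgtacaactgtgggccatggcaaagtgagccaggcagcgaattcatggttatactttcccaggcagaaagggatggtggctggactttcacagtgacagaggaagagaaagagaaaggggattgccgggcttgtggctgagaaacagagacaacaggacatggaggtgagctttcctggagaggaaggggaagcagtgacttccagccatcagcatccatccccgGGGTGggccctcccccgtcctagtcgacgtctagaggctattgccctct

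The Klf1 window held 1 GATAA and 2 CACCC matches, and the Gfi1b window held 1 of each. The Itga2b window held 1 CACCC match and 0 GATAA matches. No base was shared by a pair of matches. Among all 32851 RefSeq promoter windows of this length, 25.4% held GATAA and 57.5% held CACCC on either strand. Of the 7 of the 9 genes that matched an entry, 4 held GATAA and 6 held CACCC. Car1 and Vwf matched none.

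The libraries held between 35668279 and 55867441 counts assigned to genes. The sort labels fitted their markers: Ly6a, which encodes Sca-1, averaged 117 ± 35.2 CPM (read counts scaled to the size of each library) in vehicle LSK cells and 1.18 ± 0.651 CPM in vehicle GMP, and Mpo, a granule enzyme of myeloid progenitors, averaged 996 ± 161 CPM in vehicle LSK cells and 9260 ± 832 CPM in vehicle GMP (SD, n = 4 each). Median correlations between libraries of a group were 0.90 to 0.989 in LSK cells and 0.687 to 0.963 in GMP. Transcripts under 1000 bases took 10.81% to 15.23% of the counts in LSK libraries with AC220, alone or in combination, and 25.11% to 29.53% in LSK libraries without it. The scaling factors of the trimmed mean of M values (TMM) were 1.18 to 1.31 in LSK libraries with AC220 and 0.731 to 0.875 in those without. This split follows the treatment and cannot be told apart from it, so the main LSK results below are given also under scaling by total gene counts and under an offset for transcript length and GC content. GMP libraries stood further apart: Combination library 3 had 521 CPM of C1qb, a macrophage gene. The highest C1qb value in GMP was 85.6 CPM with AC220, 51.8 CPM with Lys05 and 13.2 CPM with vehicle.

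**Figure D1:**
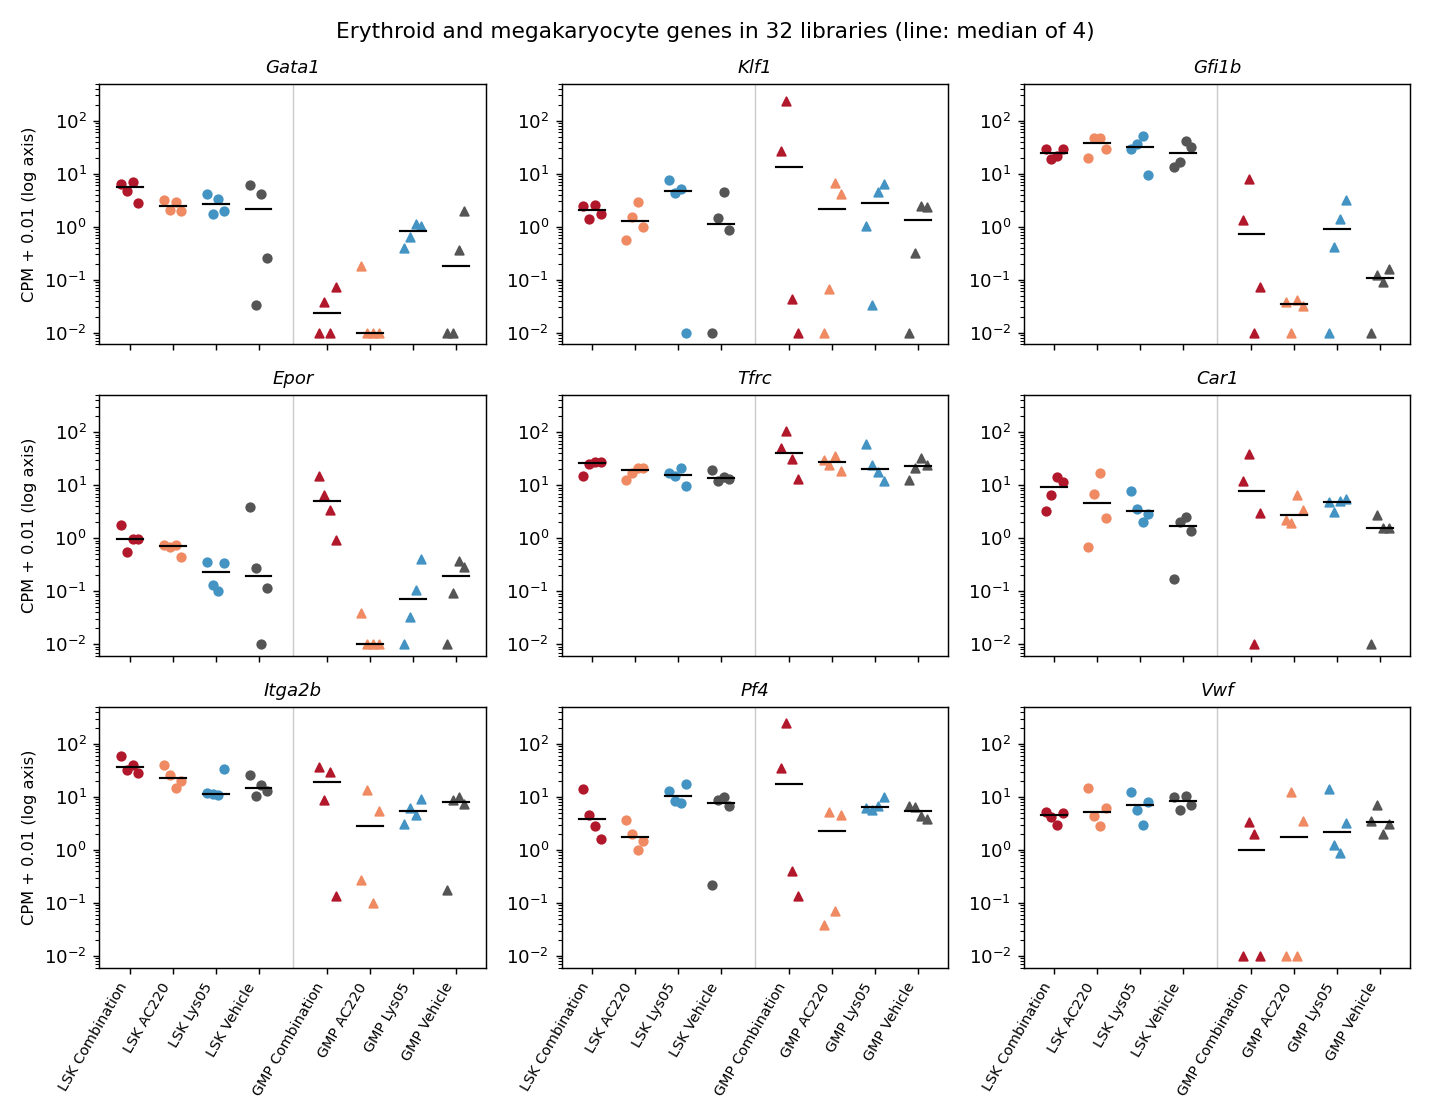
CPM of each of the 9 genes in each library on a log axis (CPM + 0.01), scaled over all 32 libraries, with the groups in the order Combination, AC220, Lys05 and vehicle for LSK cells and for GMP. Points are libraries and lines are group medians; Gfi1b stands higher in LSK cells than in GMP, and the GMP Combination libraries are spread widely for Klf1 and Pf4.

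Per kilobase of transcript, Gfi1b had the highest mean level of the 9 genes in LSK cells given AC220, at 25.0 ± 9.52 CPM per kilobase (SD, n = 4). Its libraries did not overlap those of Itga2b, next by mean at 8.59 ± 3.9 CPM per kilobase, but they did overlap those of Car1, which came after at 6.59 ± 7.14 CPM per kilobase (SD, n = 4 each). In vehicle LSK cells Gfi1b also led, at 18.5 ± 9.33 CPM per kilobase, but its libraries overlapped those of Pf4 at 13.1 ± 8.91 CPM per kilobase. Itga2b followed at 5.77 ± 2.37 and Tfrc at 3.69 ± 0.842 CPM per kilobase, and Epor was lowest at 0.729 ± 1.29 CPM per kilobase. The order was different in vehicle GMP. There Pf4 led at 7.69 ± 2.66 CPM per kilobase, Tfrc followed at 3.77 ± 1.17 and did not overlap Itga2b below it at 1.52 ± 1.01, and Gfi1b was last at 0.0403 ± 0.03 CPM per kilobase.

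In LSK cells the combination raised Car1, an early erythroid gene, over vehicle. Under TMM scaling, but not under the offset, it also raised Itga2b, which encodes CD41. Car1 was called higher with AC220 alone too, but its AC220 libraries overlapped the vehicle ones and the call was lost in several fits that left out a library. The other members, among them the factors Gata1, Klf1 and Gfi1b, were not called in any LSK comparison of the main edgeR fit. AC220 changed 1 of the 9 genes in LSK cells relative to vehicle (11.1%), where 54.9% of all 15730 genes tested changed. The combination changed 2 of 9 relative to vehicle (22.2%), where 51.8% of all genes changed, and 1 of 9 relative to Lys05 (11.1%), where 49.5% did. The median log2 fold change of the 9 genes was -0.09 for AC220 against vehicle, beside 0.09 over all genes tested. For the combination it was 0.22 against vehicle, beside 0.06 over all genes, and 0.56 against Lys05, beside 0.14. Lys05 against vehicle called 0 of the 9 genes, with a background of 0.0%: edgeR called 0 of 15730 genes, 2718 had an unadjusted p under 0.05, and DESeq2 called 607, of which 0 were among the 9. The combination against AC220 called 0 of the 9 genes, beside 0.356% of all genes (56 genes). The interaction of the 2 drugs in LSK cells also called 0 of 9, where edgeR called 0.0% of all genes, 1645 had an unadjusted p under 0.05 and DESeq2 called 98.

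Gata1 (chrX:7959260-7978071) had 7.61, 5.46, 8.06 and 3.23 CPM with the combination and 7.38, 0.0285, 4.94 and 0.299 CPM with vehicle. The vehicle libraries for Gata1 thus fell into a high pair and a low pair, and the treated groups lay between 2.01 and 8.06 CPM. Klf1 (chr8:84901928-84905291) ranged over 1.65 to 2.94 CPM with the combination, 0.645 to 3.44 CPM with AC220, 0 to 9.07 CPM with Lys05 and 0 to 5.44 CPM with vehicle. Gfi1b (chr2:28609450-28621982) ranged over 22.1 to 34.5 CPM with the combination, 23.8 to 56.3 CPM with AC220, 11.6 to 62.8 CPM with Lys05 and 16.2 to 50.0 CPM with vehicle. All these ranges overlap. Under total count scaling, Gfi1b was called higher with AC220 than with vehicle (log2 fold change 1.16, edgeR adjusted p = 0.0274), but that scaling moved the median of all genes in this comparison by 0.69.

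Epor (chr9:21958897-21963506) turned on a single vehicle library. It had 2.08, 0.646, 1.13 and 1.15 CPM with the combination, 0.855, 0.805, 0.864 and 0.513 CPM with AC220, 0.417, 0.144, 0.108 and 0.394 CPM with Lys05, and 4.70, 0.314, 0 and 0.125 CPM with vehicle. Vehicle library 1 was above all other LSK libraries and the other 3 vehicle libraries were below all AC220 and Combination libraries. With all libraries, edgeR called neither comparison, with log2 fold changes of -0.76 for AC220 and -0.04 for the combination, each against vehicle. Without vehicle library 1 the values were 2.37 for AC220 (edgeR adjusted p = 0.0356) and 3.05 for the combination (edgeR adjusted p = 0.0118). That library also had the highest Hba-a1 level of the vehicle LSK group, 406 CPM. Against Lys05, every Combination library was higher in Epor, with a log2 fold change of 2.23 that edgeR did not call (adjusted p = 0.124).

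Tfrc (chr16:32608920-32632794) had 17.8, 29.4, 31.8 and 32.9 CPM with the combination, 14.7, 19.9, 25.3 and 24.6 CPM with AC220, 20.2, 18.2, 25.7 and 11.7 CPM with Lys05, and 24.0, 14.6, 17.5 and 16.1 CPM with vehicle. A single Combination library lay within the vehicle range. The log2 fold change for the combination against vehicle was 0.63, and it missed the threshold (edgeR adjusted p = 0.0546). It passed under total count scaling (1.22) and under the offset (0.93).

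Car1 (chr3:14766216-14808368) was higher with AC220 and with the combination than with vehicle. Its libraries had 3.91, 7.55, 16.5 and 13.9 CPM with the combination, 0.807, 8.12, 19.8 and 2.74 CPM with AC220, 9.32, 4.31, 2.40 and 3.49 CPM with Lys05, and 0.193, 2.40, 3.07 and 1.65 CPM with vehicle. All Combination libraries stood above all vehicle libraries, whereas AC220 libraries overlapped the vehicle ones. The log2 fold change was 2.52 ± 0.86 (SE) for the combination against vehicle, with an adjusted p of 0.0219 by edgeR's quasi-likelihood test with Benjamini-Hochberg adjustment over 15730 genes. For AC220 against vehicle it was 2.11 ± 0.85, with an adjusted p of 0.0454 in the same edgeR test. The combination value was 3.16 under total count scaling and 4.14 under the offset, and the AC220 value was 2.84 under total count scaling and 3.95 under the offset, all 4 called. The AC220 call ended when any 1 of 5 libraries was left out, with adjusted p by edgeR of 0.084 without vehicle 1, 0.0612 without vehicle 2, 0.0843 without vehicle 4, 0.0707 without AC220 2 and 0.269 without AC220 3, and it ended in a fit of only these 2 groups (edgeR adjusted p = 0.107). The Combination call ended without vehicle 4 (edgeR adjusted p = 0.0507) or Combination 3 (0.06). The Car1 locus overlaps the processed pseudogene Gm16399, and since the library kit does not mark strand, reads from the shared stretch cannot be assigned by strand.

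Itga2b (chr11:102453297-102470122) was higher with the combination than with either vehicle or Lys05 under TMM scaling, a difference that was absent under the offset for length and GC content. It had 71.9, 38.3, 47.6 and 32.8 CPM with the combination, 48.1, 29.9, 17.2 and 22.9 CPM with AC220, 14.4, 13.4, 13.1 and 40.7 CPM with Lys05, and 31.2, 12.5, 19.9 and 15.7 CPM with vehicle. Every Combination library stood above every vehicle library, and 1 Lys05 library reached into the Combination range. The log2 fold change was 1.26 ± 0.42 (SE) for the combination against vehicle (edgeR quasi-likelihood test with Benjamini-Hochberg adjustment, adjusted p = 0.0184) and 1.22 ± 0.42 for the combination against Lys05 (adjusted p = 0.0225). Under total count scaling the 2 values were 1.87 and 1.81, both called, and under the offset they turned to -0.11 and -0.13. The call against vehicle ended without vehicle 2 (edgeR adjusted p = 0.0529), vehicle 4 (0.0515) or Combination 1 (0.0657). The call against Lys05 ended without Lys05 1, 2 or 3 (edgeR adjusted p = 0.0741, 0.0756 and 0.0783) or Combination 1 (0.081). The locus also holds the small RNA gene Gm23563.

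The sum of 8 marrow macrophage markers moved with the combination in LSK cells. It was 35.1 to 56.6 CPM with the combination, 19.0 to 29.4 CPM with AC220, 11.9 to 31.7 CPM with Lys05 and 4.56 to 22.3 CPM with vehicle. Of the 8, Cd5l was at 0 in all vehicle and all Lys05 libraries. The sum of 9 basophil and mast cell markers was 130 to 182 CPM with the combination, 78.5 to 101 CPM with AC220, 282 to 318 CPM with Lys05 and 162 to 262 CPM with vehicle, with none of the 9 at 0 throughout a group. The sum of 6 dendritic cell markers moved further, at 416 to 4260 CPM with the combination and 16400 to 64000 CPM with vehicle. The sum of 5 neutrophil markers averaged 1920 CPM with the combination and 5690 CPM with vehicle. For 7 GMP granule markers the means were 7300 and 5100 CPM, and for 5 markers of the LSK gate 1850 and 1830 CPM. The part of all these markers in the Car1 and Itga2b results was not tested. In bulk RNA, fewer cells of a type and less RNA per cell cannot be told apart.

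Pf4 (chr5:90772435-90773383) had 17.0, 5.44, 3.36 and 1.86 CPM with the combination, 4.37, 2.31, 1.16 and 1.73 CPM with AC220, 15.4, 10.0, 9.38 and 21.6 CPM with Lys05, and 0.249, 10.7, 11.9 and 7.96 CPM with vehicle. The AC220 libraries lay below 3 of the 4 vehicle libraries, and vehicle library 1 lay below all of them. The log2 fold change for AC220 against vehicle was -1.68 with an edgeR adjusted p of 0.0878, which was 0.0099 without vehicle library 1. Under the offset the AC220 value turned to 0.54. Vwf (chr6:125546774-125686679) had 6.27, 4.84, 3.51 and 5.78 CPM with the combination, against 12.3, 6.96, 12.6 and 8.31 CPM with vehicle. Every Combination library stood below every vehicle library, yet the log2 fold change of -0.98 missed the threshold (edgeR adjusted p = 0.101). Under the offset Vwf was called lower with AC220 (-1.4) and with the combination (-1.77), both against vehicle.

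Total count scaling likewise moved the median of all genes by 0.61 for the combination against vehicle and by 0.61 against Lys05. Both scalings apply 1 factor per library to all genes, so values relative to that median can hardly differ between them. Their likeness is therefore no check of the members. Gata1 stood 0.86 above the median of all genes under total counts and 0.89 above it under TMM for the combination against vehicle. The offset can change such values. For the same comparison Itga2b went from 1.21 under TMM to -0.13 under the offset and Pf4 from -0.22 to 1.61, while Gfi1b was at -0.16 and -0.1.

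**Figure D2:**
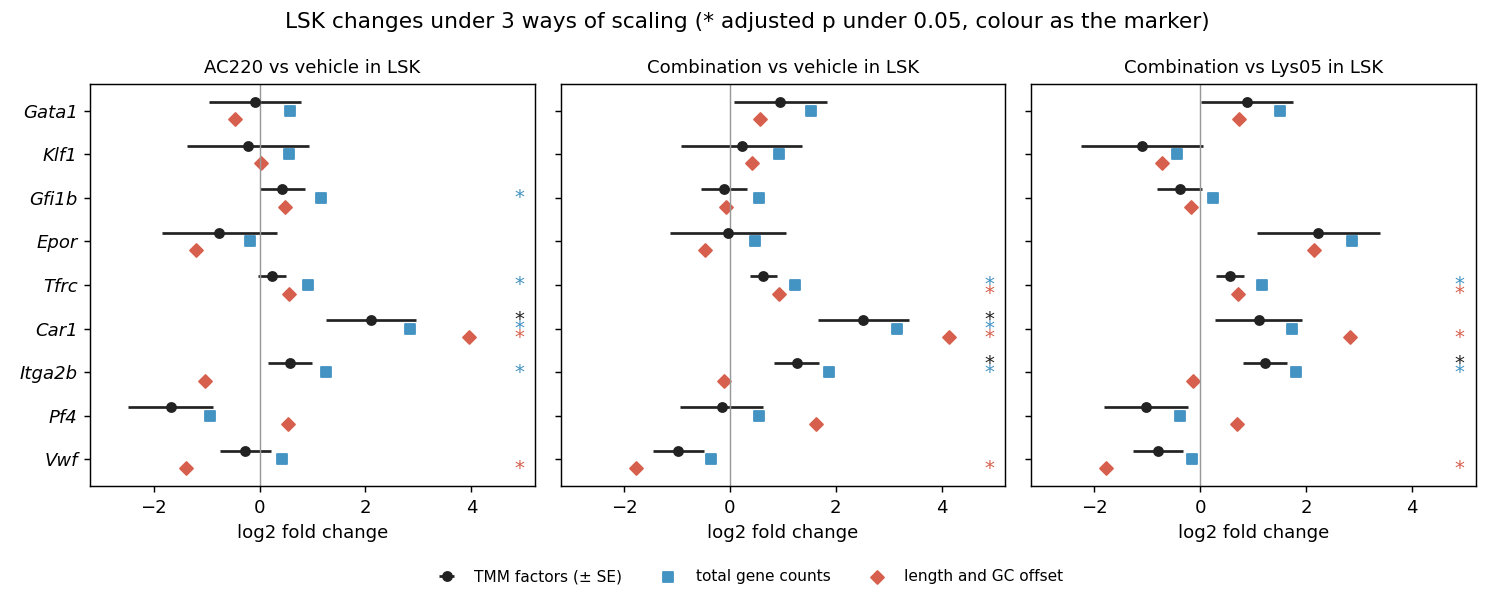
Log2 fold changes of the 9 genes in LSK cells for 3 comparisons, with TMM factors (circles, ± SE), total gene counts (squares) and the length and GC offset (diamonds); asterisks mark an adjusted p under 0.05. Car1 is above 0 under all 3 ways, at 2.52, 3.16 and 4.14 for the combination against vehicle, whereas the Itga2b values for the combination are 1.26 and 1.22 under TMM and -0.11 and -0.13 under the offset.

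Wider lists of the 2 lineages held genes called in both directions in LSK cells. Of 42 erythroid genes 41 were tested, and AC220 against vehicle called 14 higher and 3 lower (41.5%, beside 54.9% of all genes), with a median log2 fold change of 0.23 beside 0.09. Under total count scaling, which moved the median of all genes by 0.69, 21 were called higher and 1 lower, and under the offset 13 higher and 3 lower. Of all 15730 genes, total count scaling called 9353 (73.8% of them higher) and the offset called 6861 (51.4% of them higher). Cpox, an enzyme of haem synthesis, averaged 36.9 ± 1.07 CPM with AC220 and 13.4 ± 3.94 CPM with vehicle, while Alad, another enzyme of that pathway, averaged 138 ± 20.4 CPM with AC220 and 653 ± 249 CPM with vehicle (SD, n = 4 each). The log2 fold changes were 1.46 for Cpox and -2.25 for Alad, both called by edgeR, and 0.66 and -1.53 under the offset, again both called. Ldb1 and Zfpm1, which encode partners of GATA1, were called higher, with log2 fold changes of 1.23 and 1.40 that became 0.17 and -0.31 under the offset.

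With the combination against vehicle, 13 of the 41 erythroid genes were higher and 2 lower (36.6%, beside 51.8%), with a median of 0.65 beside 0.06, and total count scaling called 20 higher and 1 lower. That scaling called 8755 of all 15730 genes in this comparison, 74.5% of them higher. Slc25a37, the mitochondrial iron carrier mitoferrin 1, averaged 13.4 ± 3.59 CPM with the combination and 5.08 ± 2.43 CPM with vehicle (SD, n = 4 each), a log2 fold change of 1.39 that edgeR called, and that became 0.70 and uncalled under the offset. Against Lys05, 12 of 41 were higher and 2 lower with the combination (34.1%, beside 49.5% of all genes), with a median of 1.1 beside 0.14, and total count scaling called 20 higher and 1 lower. It called 8529 of all 15730 genes there, 74.8% of them higher.

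Of 30 megakaryocyte and platelet genes 24 were tested, and AC220 against vehicle called 8 higher and 4 lower (50.0%, beside 54.9% of all genes), or 11 higher and 2 lower under total count scaling. Selp, the P-selectin of platelet granules, averaged 48.8 ± 13.1 CPM with the combination, 28.9 ± 20.4 CPM with AC220 and 6.14 ± 2.61 CPM with vehicle, and was called higher in both comparisons with vehicle, by 2.99 and 2.23 on the log2 scale. Under the offset the 2 values were 1.94, called, and 1.06, not called. Fli1, a transcription factor of megakaryocytes, averaged 78.8 ± 5.34 CPM with AC220 and 35.4 ± 6.69 CPM with vehicle (log2 fold change 1.16, and 0.71 under the offset, both called). Lat, a signalling adaptor of platelets and T cells, averaged 36.6 ± 8.67 CPM with AC220 and 82.7 ± 17.8 CPM with vehicle (log2 fold change -1.18, and -0.47 under the offset, both called), all with SD and n = 4 each. Cd9, a platelet tetraspanin, was called lower with AC220 (-0.90) and was called higher under the offset (0.82), so its direction reversed. The combination called 8 higher and 4 lower against vehicle (50.0%, beside 51.8% of all genes), or 11 and 3 under total count scaling. Against Lys05 it called 5 higher and 4 lower (37.5%, beside 49.5%), or 10 and 4 under total count scaling. In these comparisons, in the order given, total count scaling called 9353, 8755 and 8529 of all 15730 genes. Of those called, 73.8%, 74.5% and 74.8% were higher.

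Within LSK groups some pairs of genes had their extreme values in the same library in several groups. The library lowest in Klf1 was also the lowest in Gfi1b in 4 of 4 groups, and the library lowest in Tfrc was the highest in Pf4 in 3 of 4. The library highest in Itga2b was also the highest in Gata2, a stem and progenitor cell factor chosen after its values were seen, in 4 of 4 groups. It was the highest in Pf4 in 3 groups and in Vwf in 2, and the lowest in each of Klf1, Gfi1b, Car1 and Tfrc in 3. The group that departed was not the same for each gene. Vehicle library 1 went the other way for Pf4 and Tfrc. It was highest in Itga2b (31.2 CPM) but lowest in Pf4 (0.249 CPM) and highest in Tfrc (24.0 CPM). Lys05 library 4 shows the pattern in single values. It had 40.7 CPM of Itga2b, 21.6 CPM of Pf4, 11.6 CPM of Gfi1b and 0 CPM of Klf1, where the other Lys05 libraries had 13.1 to 14.4 CPM of Itga2b and 5.19 to 9.07 CPM of Klf1.

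**Figure D3:**
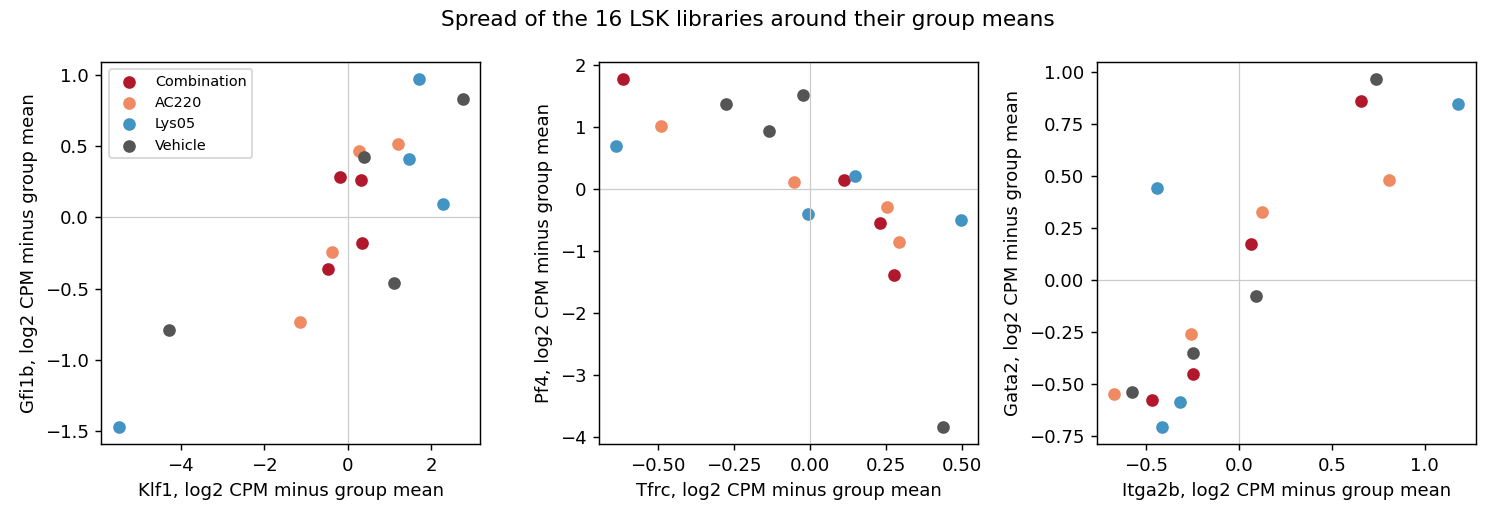
Deviation of each of the 16 LSK libraries from its group mean, in log2 CPM, for Klf1 and Gfi1b, Tfrc and Pf4, and Itga2b and Gata2, coloured by treatment. The libraries lowest in Klf1 are low in Gfi1b, most of those high in Pf4 are low in Tfrc, and most of those high in Itga2b are high in Gata2; the points share libraries and depth.

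Among 9127 genes compared over the 16 LSK libraries, the pattern most like that of Klf1 was that of Prr3 (Pearson's r = 0.951), the most like Gfi1b was Rdh14 (0.897) and the most like Itga2b was Micall2 (0.937). The most like Car1 was Jpt2 (0.886), and the most like Epor was Smc1a (0.949). Spearman's rho, which uses ranks, was lower for each pair, at 0.826, 0.871, 0.891, 0.841 and 0.844 in that order. Klf1 was at 0 CPM in vehicle library 1 and in Lys05 library 4, and such libraries weigh heavily on Pearson's r. These are descriptions of deviations from group means, and the 3 nearest genes of each member contained none of the listed lineage genes.

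In GMP, several of the 9 genes were higher in Combination libraries 1 and 2 than in libraries 3 and 4. Klf1 had 25.0, 197, 0.026 and 0 CPM in the Combination libraries, against 0, 0.255, 1.93 and 1.78 CPM in the vehicle libraries. Pf4 had 32.1, 217, 0.312 and 0.116 CPM with the combination, against 6.27, 5.40, 3.45 and 2.97 CPM with vehicle. Combination libraries 1 and 2 were above all vehicle libraries for both genes, and Combination libraries 3 and 4 were below the highest vehicle library. Tfrc had 46.7, 89.3, 24.8 and 12.1 CPM with the combination. Car1 had 11.4, 32.5, 0 and 2.81 CPM, and Gfi1b 1.25, 6.83, 0 and 0.058 CPM. The same pair of Combination libraries was highest for Tfrc, Car1 and Gfi1b. The highest vehicle libraries had 25.6 CPM of Tfrc, 2.25 CPM of Car1 and 0.117 CPM of Gfi1b, so Car1 in Combination library 4 was still above them. Itga2b and Vwf did not follow that pair. Itga2b had 33.8, 7.37, 22.9 and 0.116 CPM with the combination, against at most 7.75 CPM with vehicle, and Vwf had 0, 2.91, 1.56 and 0 CPM with the combination.

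Epor differed from the others in that all 4 Combination libraries were high. It had 14.0, 5.63, 2.70 and 0.842 CPM with the combination, and no other GMP library exceeded 0.302 CPM. The log2 fold change against vehicle was 5.29 ± 1.76 (SE), which edgeR did not call after Benjamini-Hochberg adjustment (adjusted p = 0.322). DESeq2 called it, with a log2 fold change of 5.2 and an adjusted p of 0.0135, among 371 genes (2.55%) that it called in this comparison. Against AC220 alone, the ratio of Epor CPM was 1030 (95% counting interval 185 to 40800, from 945 counts with the combination and 1 with AC220, counting error only).

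The edgeR test called 0 of the 9 genes in GMP for the combination against vehicle, with a background of 0.0% (0 of 14572 genes, 1601 with an unadjusted p under 0.05), and 6 of the 9 had an unadjusted p under 0.05. Without Combination library 2, the log2 fold change against vehicle fell to 2.92 for Klf1 (5.80 with all libraries), 1.18 for Pf4 (3.78), 2.48 for Gfi1b (4.83) and 1.87 for Car1 (3.31), whereas Epor stayed at 5.19. Gata1 was near the detection limit, with 3 counts over the 4 Combination libraries and 103 over the vehicle libraries, a CPM ratio of 0.032 (counting interval 0.00648 to 0.096, counting error only). The vehicle libraries held 0, 0, 13 and 90 counts, so 1 library held most of them. The edgeR test did not call the difference (log2 fold change -4.29 ± 2.01 (SE), adjusted p = 0.452). For the combination against AC220 the background was 0.00686% (1 gene), and 0 of the 9 were called by edgeR, while DESeq2 called Epor, Gfi1b and Pf4 among 818 genes (5.61%).

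AC220 against vehicle in GMP called 0 of 9 (background 0.0%; 1386 genes with an unadjusted p under 0.05, 282 called by DESeq2). Lys05 against vehicle called 0 of 9 (background 0.0%; 159 with an unadjusted p under 0.05, 2 called by DESeq2). The combination against Lys05 called 0 of 9 (background 0.0%; 1786 and 450), and the interaction in GMP called 0 of 9 (background 0.0%; 1287 and 240). Under AC220 the megakaryocyte genes were split by library: Itga2b had 0.236, 11.8, 0.0884 and 4.75 CPM, Pf4 0.0262, 4.63, 0.0589 and 3.93 CPM, and Vwf 0, 11.2, 0 and 3.04 CPM. AC220 libraries 2 and 4 held nearly all of the 3 transcripts.

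Markers of other cells varied in GMP too. The macrophage marker sum was 96.9 to 1310 CPM with the combination, 23.7 to 164 CPM with AC220, 26.6 to 187 CPM with Lys05 and 12.0 to 35.6 CPM with vehicle. The AC220 and Lys05 ranges overlapped that of the combination. None of the 8 markers was at 0 throughout any of these groups. The library with the highest sum, Combination 3, had 1020 CPM of Hba-a1, an alpha globin gene, and it was not among those high in Klf1 or Pf4. Hba-a1 was 41.3 CPM in Combination library 2, where Klf1 was highest. Other genes of the erythroid list were divided. Ank1 at 19.5 CPM and Car2 at 116 CPM were highest of the group in Combination library 2, whereas Alas2 was highest in library 3 at 2.26 CPM. The part of these markers in the GMP values was not tested.

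**Figure D4:**
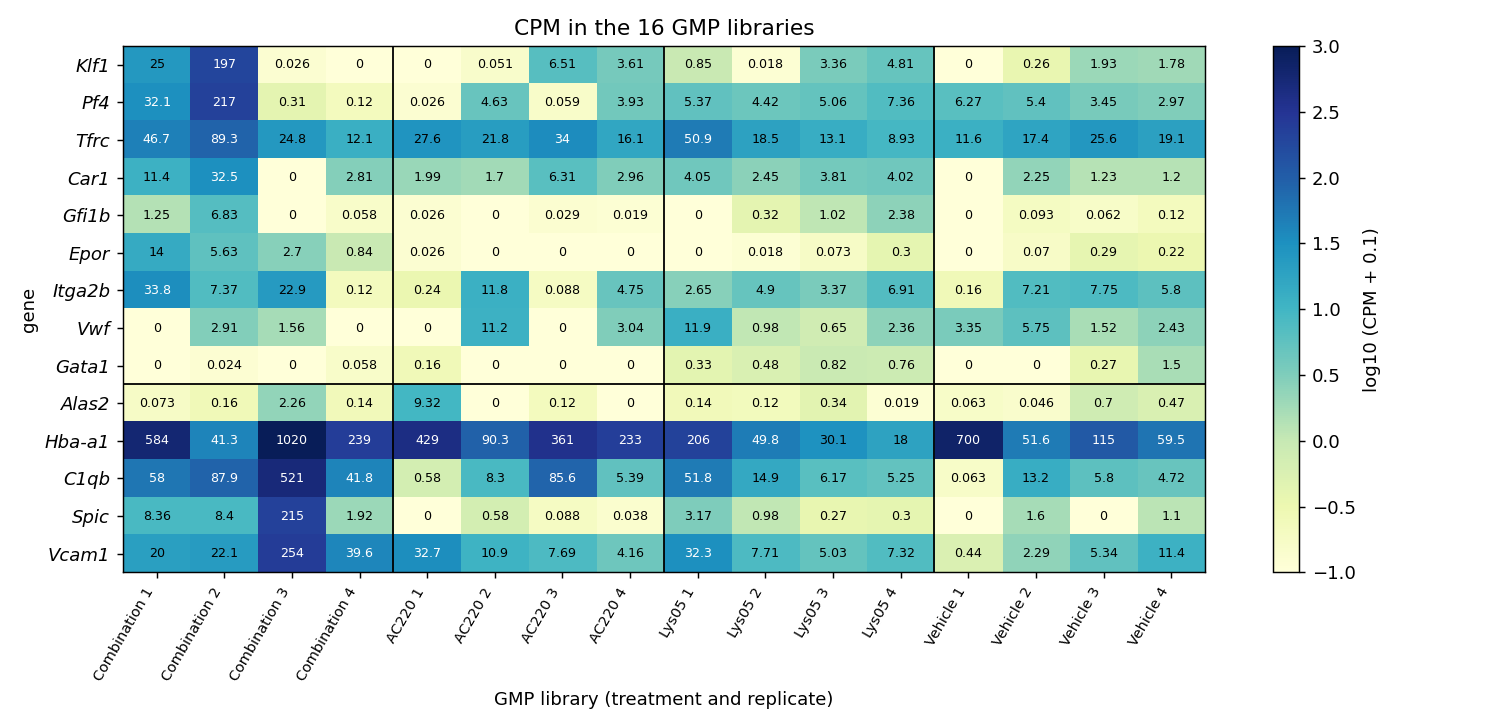
CPM of the 9 genes and 5 marker genes of red cells and macrophages in each of the 16 GMP libraries, coloured by log10 of CPM + 0.1, with treatments in the order Combination, AC220, Lys05 and vehicle. Combination libraries 1 and 2 are darkest for Klf1 and Pf4 (25.0 and 197 CPM of Klf1), and Combination library 3 is darkest for Hba-a1, C1qb and Spic.

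Between the sorted populations, Gfi1b was higher in LSK cells than in GMP and was called under all 4 treatments, with the call under the combination depending on the processing. On the scale of all 32 libraries, it averaged 25.9 ± 13.1 CPM in vehicle LSK cells and 0.0858 ± 0.0641 CPM in vehicle GMP (SD, n = 4 each), a log2 difference of 8.14 ± 1.46 (SE; edgeR quasi-likelihood test with Benjamini-Hochberg adjustment over 17144 genes, adjusted p = 8.0e-04). Under AC220 the ratio of CPM was 1760 (95% counting interval 601 to 8520, from 10679 counts in LSK cells and 3 in GMP), with an edgeR adjusted p of 1.2e-05. The log2 difference was 4.66 ± 1.22 under Lys05 (edgeR adjusted p = 0.0238) and 3.38 ± 1.15 under the combination (edgeR adjusted p = 0.0275). The Lys05 call ended without GMP Lys05 1, 2 or 3 (edgeR adjusted p = 0.061, 0.0916 and 0.0578) or LSK Lys05 3 (0.0697). The Combination call ended without GMP Combination 1 (edgeR adjusted p = 0.0616) or 4 (0.0555) or LSK Combination 4 (0.0512). It also ended under the offset (2.66, edgeR adjusted p = 0.0562), in a fit of only these 2 groups (3.36, edgeR adjusted p = 0.177) and with limma quality weights (4.81, adjusted p = 0.0961).

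Gata1 and Epor separated the populations under part of the treatments. Gata1 was higher in LSK cells than in GMP under the combination, with a ratio of CPM of 232 (95% counting interval 79.1 to 1130, 1379 counts in LSK cells and 3 in GMP; edgeR adjusted p = 0.00225), and under AC220 by 5.82 ± 1.68 on the log2 scale (edgeR adjusted p = 0.00894). Epor was higher in LSK cells under AC220, with a ratio of 94.8 (16.8 to 3760, 192 counts in LSK cells and 1 in GMP; edgeR adjusted p = 0.00762). Klf1 and Pf4 pointed the other way under the combination, with log2 differences of -5.00 (edgeR adjusted p = 0.0685) and -3.63 (0.0523) that missed the threshold. Under the offset Klf1 was called lower in LSK cells (-5.76, edgeR adjusted p = 0.0407), while Pf4 was at -2.05 (0.228). Under vehicle 1 of the 9 genes was called (11.1%, beside 4.84% of all genes), under Lys05 1 (beside 4.54%), under AC220 3 (33.3%, beside 35.1%) and under the combination 2 (22.2%, beside 28.9%). Total count scaling moved the median of all genes by 0.85 under AC220 and by 0.84 under the combination, and Gfi1b was higher in LSK cells under that scaling too.

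**Figure D5:**
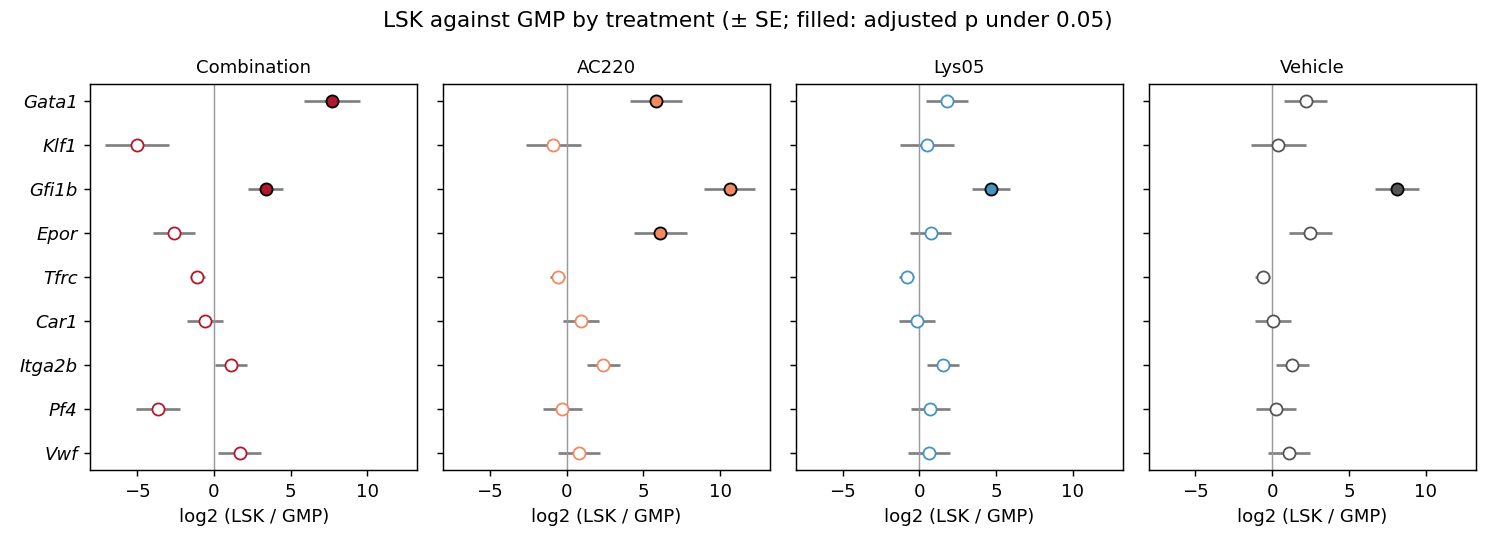
Log2 difference of LSK cells over GMP for the 9 genes under each treatment, ± SE, with filled points for an adjusted p under 0.05. Gfi1b is filled in all 4 panels, at 8.14 under vehicle and 3.38 under the combination (2.66 and not called under the offset); Gata1 is filled under AC220 and the combination.

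For Gfi1b the effect of the combination was called different between the populations in part of the fits. The log2 effect in LSK cells minus that in GMP was -4.77 ± 1.62 (SE; edgeR adjusted p = 0.0494), 1 of the 9 genes beside a background of 12.7%. The call ended in 13 of the 16 fits that each left out 1 library, and without GMP Combination 2 the adjusted p by edgeR was 0.268. It also ended without a filter on low counts (-4.78, edgeR adjusted p = 0.0653), with only the groups compared (-4.79, 0.107), with limma quality weights (-3.03, 0.421) and under total count scaling (-3.89, 0.0903), where Gata1 was called instead (6.28, edgeR adjusted p = 0.043). Under the offset it was kept (-5.35, edgeR adjusted p = 0.026), and Epor was called too (-6.36, 0.0373). The AC220 effect called 0 of 9 (background 16.8%), and the Lys05 effect called 0 of 9 (background 0.0%; 500 genes with an unadjusted p under 0.05, 211 called by DESeq2).

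Of the wider lists, 3 of 41 tested erythroid genes were higher in LSK cells than in GMP under vehicle (7.32%, beside 4.84%), as were 4 of 24 megakaryocyte and platelet genes (16.7%). Lat was higher by 6.52 on the log2 scale and Car2, a carbonic anhydrase of many tissues, by 5.34.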

How the data were processed

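RNA was sequenced from sorted LSK cells and GMP, with SMARTer amplification and Nextera libraries per the labels' protocols. Per the submitters' processing notes, the tools named, with no roles given, are STAR 2.7.3a, HTSeq 0.11.2, Trim Galore 0.6.5, DESeq2 1.26.0 and bcl2fastq 2.20 and the build is GRCm38. The deposited values are whole-number read counts per gene. The 5 summary lines of unassigned reads, 15.18% to 30.93% of a library, were left out. The strand setting is not given in the sources used here.

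Counts were fitted with edgeR 4.0.16 (R 4.3.3; filterByExpr, TMM, robust quasi-likelihood), per cell type (16 libraries) and over all 32, with Benjamini-Hochberg adjustment and a threshold of 0.05. A called gene passed it. DESeq2 1.42.0, limma 3.58.1 with quality weights, other scaling, no filter, a length and GC offset and leaving out each library were alternatives; total count scaling was chosen after seeing the data. Levels are TMM-scaled CPM. Gene coordinates and lengths are from GENCODE M21. The members, lists and rules for named genes were chosen with earlier results of these data known: the 9 members, up to 4 list genes per comparison by smallest p, and the 3 most correlated genes. Replicates are labelled biological; numbers follow accession order. The fit was tested on simulated counts. Intervals cover counting error only.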

Additional observations from a re-analysis of the deposited data

Results flagged for a closer look

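The rule that flags a library far from the other 3 of its group marks about 1 in 20 groups by chance if values are normally distributed. CPM at or near 0 need not be, and a group with 3 libraries at 0 and 1 above it is always flagged. No excess over that rate can therefore be read from the count. Of the 72 combinations of gene and group, 9 held such a library. In LSK cells these were Klf1 at 0.0 CPM and Itga2b at 40.7 CPM, both in Lys05 library 4, Epor at 0.513 CPM in AC220 library 4 (low) and Pf4 at 0.249 CPM in vehicle library 1 (low). In GMP they were Gata1 at 0.157 CPM and Epor at 0.0262 CPM, both the highest and both in AC220 library 1, Car1 at 2.45 CPM in Lys05 library 2 (low), and Car1 at 0.0 CPM and Itga2b at 0.158 CPM, both low and both in vehicle library 1. The Epor value in GMP rests on 1 count. The effect of the combination on Gfi1b was called different between LSK cells and GMP, by -4.77 on the log2 scale, in a test of the difference itself (edgeR adjusted p = 0.0494). That call ended in most fits that left out 1 library.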

How the results depend on the processing

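Over all comparisons and alternatives, 265 counts of called members were within 1.5 times the main count and 60 were not. Values for single genes stayed on the same side of the threshold 2803 times, were newly past it 61 times and no longer past it 46 times. Of the 2803, 2655 were uncalled in both fits, and 168 of those turned sign. A further 5 values reversed, meaning that the sign differed and either fit called the gene. Reversed were Epor for AC220 against vehicle in LSK cells without vehicle library 1 (2.37), Epor for the combination against vehicle with quality weights (2.6) and without vehicle library 1 (3.05), and Itga2b under the length and GC offset for the combination against vehicle (-0.11) and Lys05 (-0.13). In the main fit Epor was called in neither of its comparisons, while Itga2b was called in both of its own. Leaving out 1 library at a time, Epor ranged from -1.12 to 2.37 for AC220 and from -0.44 to 3.05 for the combination, each against vehicle in LSK cells. The causes were not tested.

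In LSK cells, AC220 against vehicle called 1 member, against 2 with DESeq2, 0 with DESeq2-type size factors, 0 without a filter, 0 with only the 2 groups, 2 under the offset, 4 under total counts, and 0 to 2 leaving out a library. Of all 15730 genes, DESeq2 called 9118, DESeq2-type size factors 8618, the offset 6861 and total counts 9353. Without a filter 8598 of 29001 genes were called, and with only the 2 groups 7725 of 14583. The combination against vehicle called 2, against 4 with quality weights and 0 to 4 leaving out a library. Quality weights called 8913 of all 15730 genes there. The combination against AC220 called 0, against 2 with quality weights, and against Lys05 it called 1, against 2 with only the 2 groups, 4 with quality weights, 3 under the offset, 2 under total counts and 0 to 1 leaving out a library. Of all 15730 genes, quality weights called 2113 against AC220 and 9813 against Lys05. Against Lys05 the offset called 6100, total counts 8529, and the fit of only the 2 groups 7932 of 14484. In GMP, where 0 were called, quality weights gave 1 for Lys05 against vehicle and 1 for the combination against Lys05, and DESeq2 gave 1 for the combination against vehicle, 3 against AC220, 1 against Lys05 and 1 for the interaction. Of all 14572 genes, quality weights called 732 and 494 in these comparisons, and DESeq2 called 371, 818, 450 and 240, in the order given.

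LSK cells against GMP called 1 under Lys05, against 2 with only the 2 groups and 0 to 1 leaving out a library, and 2 under the combination, against 5 with DESeq2, 1 with only the 2 groups and 1 to 4 leaving out a library. With only the 2 groups, 2325 of 13766 genes were called under Lys05 and 2472 of 14205 under the combination. DESeq2 called 6115 of 17144 genes under the combination. The AC220 effect called 0, against 2 with quality weights and 0 to 1 leaving out a library. Quality weights called 5564 of all 17144 genes for that effect. The Combination effect called 1, against 3 with DESeq2, 0 without a filter, 0 with only the groups compared, 0 with quality weights, 2 under the offset and 0 to 1 leaving out a library. Of all 17144 genes, DESeq2 called 3429, quality weights 3318 and the offset 1510. Without a filter 1620 of 32757 were called, and with only the groups compared 1347 of 15794. No paired analysis was possible because the labels carry no replicate numbers. For the combination against AC220 in LSK cells, DESeq2 gave no adjusted p for 8 of the members. Depth limits Gata1, Gfi1b and Epor in GMP, where groups held 1 to 3 counts.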

Other observations

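Products of mature platelets and red cells differed in how far they were detected in the LSK libraries. Gp9, a subunit of the platelet receptor for von Willebrand factor, had 5.69 to 18.6 CPM with the combination, 7.46 to 10.2 CPM with AC220, 9.33 to 14.7 CPM with Lys05 and 0.47 to 8.31 CPM with vehicle, and Itgb3, the partner chain of CD41, had 9.6 to 12.4 CPM with the combination and 2.74 to 17.9 CPM with vehicle. These genes were chosen after their values were seen. Treml1, a receptor of platelet granules, was at 0 in all libraries of all 4 LSK groups, and Gp6, the collagen receptor of platelets, was at 0 in all AC220, Lys05 and vehicle libraries. Alpha globin (Hba-a1) ranged from 24.4 to 841 CPM with the combination, 79.3 to 272 CPM with AC220, 19.4 to 148 CPM with Lys05 and 77.8 to 406 CPM with vehicle, and these ranges overlap. Alas2, the first enzyme of haem synthesis in red cells, had 0.938 to 20.5 CPM with the combination, 2.78 to 9.04 CPM with AC220, 0.0281 to 2.33 CPM with Lys05 and 0.0829 to 1.02 CPM with vehicle, so that the AC220 libraries were above all vehicle libraries and edgeR called the gene higher.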
